A study of Mus musculus with 2 samples.

Results

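The 39 genes described here act in the G2 phase and mitosis of the cell cycle. They were taken by name from the rows of both deposited count tables, 39 of the 15944 genes listed in both, and every one was found. Their levels were followed across the deposited clusters and cell cycle phases of the developing mouse lower jaw. Single cells came from mandibular prominences of wild-type CD1 embryos, an outbred strain, at embryonic day 11.5 (E11.5) and embryonic day 13.5 (E13.5), with the tongue primordium included and, at E13.5, skeletal elements. Neither group carried an engineered allele or a drug treatment. Tissue (12.5 mg a stage) was kept in the cold for 10 minutes with a protease of Bacillus licheniformis, 3 mg/ml for the younger and 5 mg/ml for the older embryos. Of the released cells 9600 went onto a 10x Chromium well, with a target of 6000. The labels do not say how many embryos or litters were combined, nor their sex.

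A cell that has copied its DNA enters mitosis when Cdk1 bound to cyclin B becomes active. Aurora and checkpoint kinases then supervise the attachment of chromosomes to the spindle, and the anaphase-promoting complex ends mitosis by marking cyclin B and other proteins for destruction. Most genes of this set are transcribed in a wave that starts late in S phase and peaks in G2 and mitosis, and they are kept silent in resting cells, so their RNA is widely used to recognise dividing cells. The lower jaw at these stages is built mainly by mesenchyme derived from the neural crest, which first multiplies and then forms cartilage, bone and connective tissue, while muscle precursors migrate in and stop dividing as they fuse.

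The libraries held 7099 cells with 49913485 UMIs (unique molecular identifiers, counted RNA molecules) at E11.5 and 6318 cells with 67838169 UMIs at E13.5. The median cell had 6231 and 9280 UMIs. Each stage was 1 library, so no difference has a replicate check, no test between stages was possible and no p-value is given; intervals are exact 95% intervals that cover counting error only. The shallowest deposited cells had 2253 UMIs (E11.5) and 500 UMIs (E13.5), and the mitochondrial share reached 7.9% and 19.98%. The libraries shared 71 cell barcodes, 1.0% and 1.12% of their cells. Clusters, lineage names and phases are the authors' deposited values. The classes carried their defining markers: Prrx1 at 445 and 304 CPM (counts per 1000000 UMIs) in mesenchyme, Epcam at 293 and 356 CPM in epithelium, Myog at 579 and 1510 CPM in skeletal muscle and Cdh5 at 395 and 458 CPM in endothelium, at E11.5 and E13.5. Cluster 20 of E13.5 bears a deposited mast cell name but carried the macrophage gene C1qa at 945 CPM, and is called macrophage here.

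At E11.5 the 39 genes together held 334826 UMIs, or 6708 CPM, and in the older library 346155 UMIs, or 5103 CPM. Hmgb2, which bends DNA as a chromatin protein, held the most UMIs, 13.3% and 14.6% of those of the set. Ube2c, the ubiquitin-conjugating enzyme of the anaphase-promoting complex, and Cks1b, a small subunit of cyclin-dependent kinases, followed with 6.88% and 8.31% at E11.5 and 7.7% and 7.16% at E13.5. The fewest belonged to Gtse1, a microtubule-associated protein of G2, at 11.34 and 8.476 CPM. The exons of 9 of the 39 overlap another annotated gene, 8 of them only on the opposite strand, among them Ube2c with the troponin gene Tnnc2 and Tubb4b with Fam166a. The sources used here do not say whether counting used strand, so these genes carry that uncertainty.

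The summed level differed between clusters of one class and between classes. At E11.5 the highest clusters were all mesenchyme: cluster 3 at 9699 CPM, cluster 10 at 9484 CPM and cluster 1 at 9057 CPM. The lowest mesenchyme cluster was cluster 5 at 4452 CPM, so that the highest was 2.18-fold (2.14 to 2.22) above the lowest. At E13.5 mesenchyme clusters 10 and 4 stood apart from all others, at 11430 and 11280 CPM. No cell of either was called G1, 51.4% and 51.1% were called S and 48.6% and 48.9% were called G2M. The lowest mesenchyme cluster at E13.5 was cluster 0 at 2242 CPM, with 85.9% of its cells called G1, and the spread from lowest to highest had grown to 5.1-fold (4.99 to 5.21). Leaving out cells of over 2 times the median depth of their cluster and phase gave 5.69-fold. Because the clusters and phases were computed from these same cells, these values are descriptions.

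**Figure D1:**
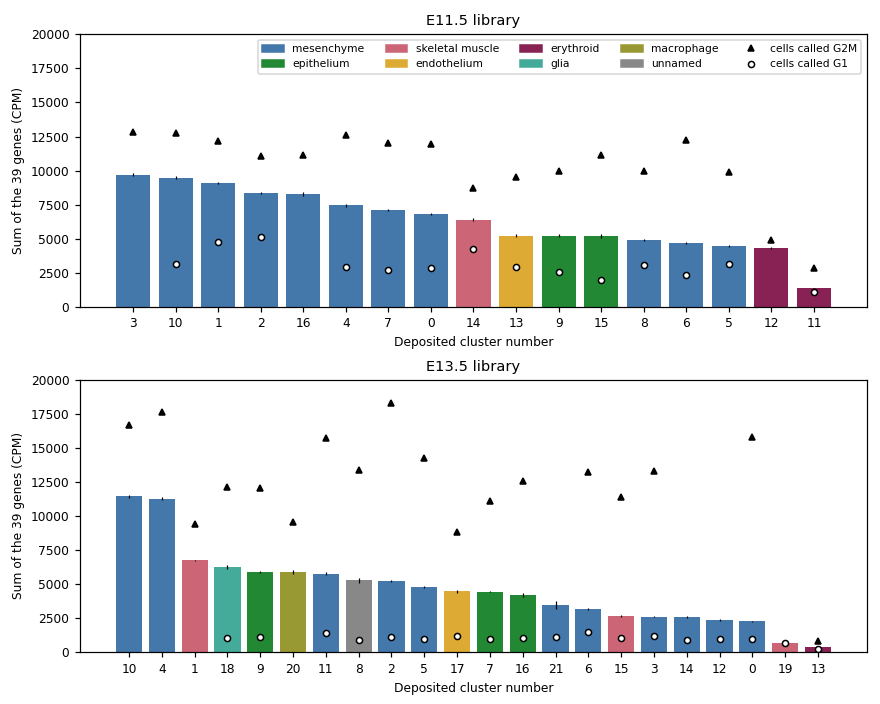
Summed CPM of the 39 genes (y axis, from 0) in each deposited cluster of at least 50 cells (x axis, ordered by level and coloured by class) at E11.5 and E13.5. Error bars are 95% counting intervals, triangles and open circles give the same sum in cells of the cluster called G2M and G1 where there were at least 20, and the bars fall from 9699 to 1356 CPM at E11.5 and from 11430 to 387.2 CPM at E13.5.

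The share of cells called G2M went with the summed level over the 11 mesenchyme clusters of each library (Pearson r of 0.98 at E11.5 and 0.984 at E13.5). Over all clusters of at least 50 cells it did so less closely, with r of 0.593 over 17 clusters and 0.772 over 22. These include the erythroid clusters, among them E11.5 cluster 12, with 74.3% of cells called G2M but 61.3% of UMIs from haemoglobin. They also include E13.5 cluster 8, given no class here, with a median of 935.5 UMIs and haemoglobin at 24.1%. The points share a library, and 38 of the 39 genes are in the G2M gene list published with the Seurat software, so the share and the level need not be independent. Across single cells the mean level of the 39 genes had a Pearson r of 0.958 and 0.971 with the deposited G2M score, and of -0.138 and 0.281 with the deposited S score. Within cells called G2M the mesenchyme clusters with at least 20 such cells (11 at E11.5 and 8 of 11 at E13.5) ranged from 9900 to 12840 CPM at E11.5 and from 13200 to 18330 CPM at E13.5.

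Skeletal muscle clusters of E13.5 spanned a wide range. Cluster 1 had 6735 CPM with 47.2% of its cells called G2M, cluster 15 had 2635 CPM with 12.9%, and cluster 19 had 683.4 CPM with all 80 cells called G1. Cluster 19 also had the deepest cells, with a median of 23711 UMIs. Of the members it kept Tubb4b, a tubulin that is not restricted to mitosis, at 87.1 CPM, while Hmgb2 was at 43.29 CPM and Ube2c at 13.92 CPM. At E11.5 the single muscle cluster stood at 6373 CPM, with 39.7% of its cells called G2M and 21.2% called G1.

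Erythroid cells had the lowest levels of each library, and here the haemoglobin transcripts that dominate their RNA set the scale. At E11.5 cluster 11 had 1356 CPM and cluster 12 had 4300 CPM, with haemoglobin at 70.9% and 61.3% of UMIs. Counted over the UMIs that were not haemoglobin, these became 4657 and 11120, the latter above every other E11.5 cluster on that scale. In cluster 12, 74.3% of cells were called G2M. At E13.5 haemoglobin took 88.2% of the UMIs of cluster 13, and the level was 387.2 CPM, or 3284 without haemoglobin. There, 35.7% of cells were called G2M, yet the cells so called had 841.1 CPM, the lowest value of any G2M-called group. In this cluster Ube2c was the leading member at 116.9 CPM and Tubb4b next at 66.95 CPM, while Hmgb2 was at 22.88 CPM.

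To set cells of unequal depth side by side, cells of at least 2000 UMIs were thinned to that number and counted if they kept 5 or more UMIs of the 39 genes. Every E11.5 cell of these classes had that depth. At E13.5 it left 3826 of 3905 mesenchyme, 792 of 838 epithelial, 748 of 752 muscle, 105 of 137 endothelial and 206 of 207 erythroid cells. At E11.5 this was 79.7% of mesenchyme cells (78.7 to 80.7) and at E13.5 36.7% (35.1 to 38.2). Without thinning, over all cells, the shares were 97.4% and 86.4%. Thinned shares were 62.0% (E11.5) and 45.3% (E13.5) in epithelium, 90.1% and 62.0% in skeletal muscle, 74.7% and 48.6% in endothelium and 46.3% and 0.971% in erythroid cells, and unthinned 96.8% and 87.4%, all of 151 cells and 98.1%, 95.1% and 72.3%, and 98.7% and 39.6%. In muscle cluster 19, where every cell was called G1, 6.25% of thinned cells, and 76 of 80 cells without thinning, passed the same count. Whether free RNA added such UMIs was not tested.

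The 39 genes did not all follow the sum. At E11.5 cluster 3 held the highest level of 17 members and cluster 10 of 12, and erythroid cluster 11 the lowest of 38. At E13.5 clusters 10 and 4 held the highest level of 21 and 16 members, and muscle cluster 19 and erythroid cluster 13 the lowest of 21 and 17. The erythroid levels are over all UMIs, of which haemoglobin took 70.9% in cluster 11 and 88.2% in cluster 13. Without haemoglobin the sum of cluster 11 (4657) lay above that of E11.5 mesenchyme cluster 5 (4508). Of the other 10 members at E11.5, Ndc80, Nuf2, Gtse1 and Tmpo were highest in cluster 16, Ttk, Cenpe and Kif2c in cluster 1 and Tubb4b in erythroid cluster 12. The last pair, Cenpa, the histone H3 variant that marks centromeres, and Ccnb2, a B-type cyclin, were highest in cluster 8. E11.5 cluster 8 was low in the sum, at 4899 CPM with 64.6% of its cells called G1, but had the highest Cenpa of its library at 498.2 CPM and the highest Ccnb2 at 171.4 CPM. These were 1.35 and 1.32 times the levels of the whole library. The other members above the library level there were Bub1 at 1.13 and Anp32e at 1.1. In the same cluster Mki67, the proliferation antigen Ki-67 that coats mitotic chromosomes, was at 0.278 and Top2a, the topoisomerase that untangles sister DNA, at 0.304 of the library level. In E11.5 cluster 5 Cenpa was at 1.24 and Ccnb2 at 1.17, against 0.451 for Mki67, 0.258 for Top2a and 0.247 for Aurkb, the kinase of the chromosomal passenger complex. E11.5 mesenchyme cluster 6, with 67.7% of its cells called G1, differed, with Cenpa at 0.739 and Ccnb2 at 0.898.

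Cenpa and Ccnb2 also led 2 clusters of the later library. In E13.5 cluster 11, at 5759 CPM in the sum, both stood at 1.68 times the library level, with Cenpa at 381.6 CPM, its highest value over all E13.5 clusters. Top2a was at 0.781 there. In E13.5 cluster 2 Ccnb2 was at 1.61 and Cenpa at 1.52, against 0.6 for Top2a and 0.686 for Cdk1. They were not alone: 24 of the 39 members in cluster 11 and 17 in cluster 2 stood above the library level. The library level pools all classes, erythroid cells among them, and the share of all genes above it was not computed. Next after Cenpa and Ccnb2 came Kif23 at 1.52 in cluster 11 and Ckap2 at 1.42 in cluster 2. E11.5 clusters 8 and 5 and E13.5 clusters 11 and 2 were singled out after their values were seen. Hjurp, the chaperone that loads Cenpa, was at 1.18 in cluster 11 and 0.855 in cluster 2. Its highest E13.5 value, 74.56 CPM in cluster 21, rests on 10 UMIs from 72 cells with a median of 1833 UMIs.

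**Figure D2:**
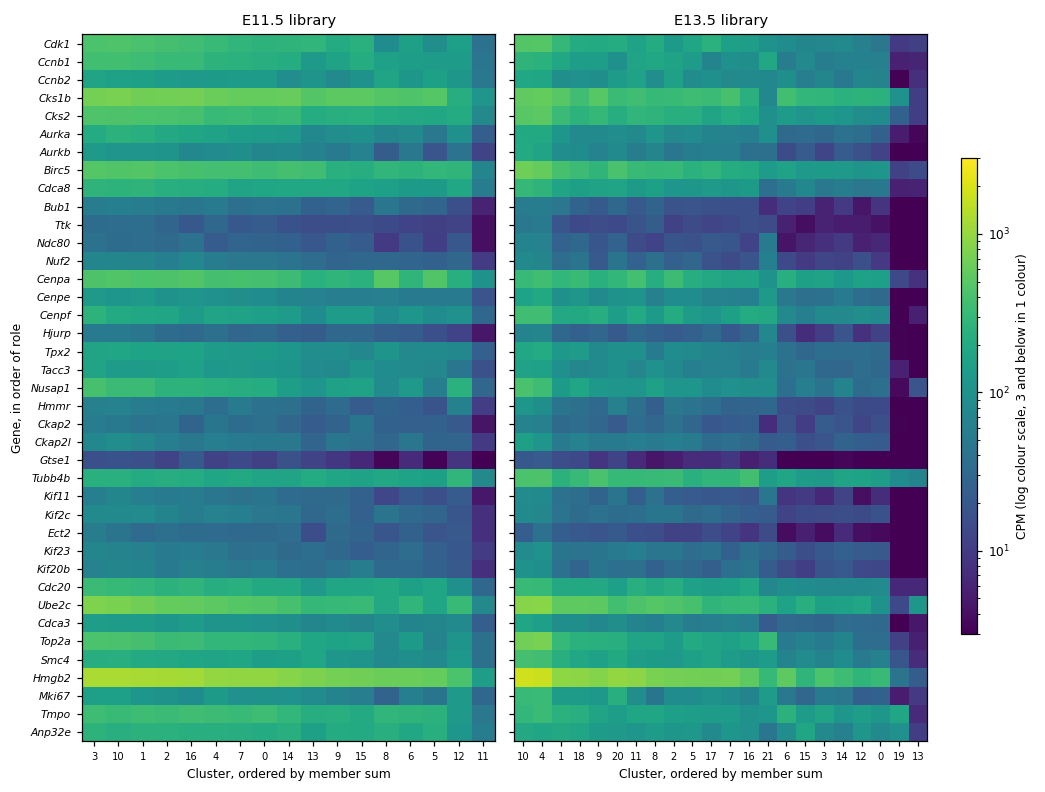
CPM of each gene (rows, in order of role) in each cluster of at least 50 cells (columns, ordered by the summed level), on a log colour scale. Hmgb2, Ube2c and Cks1b form the brightest rows, the Cenpa row stays bright in E11.5 clusters 8 and 5, and E13.5 clusters 19 and 13 are dark in nearly all rows.

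Across the phases, every member was highest in cells called G2M in both libraries. Of all E11.5 cells 33.7% were called G1, 28.9% S and 37.4% G2M, and of all E13.5 cells 50.4%, 24.8% and 24.8%. A gene was called different where its levels differed at least 1.5-fold, the interval of the ratio excluded 1 and at least 20 UMIs were counted over both groups. By this rule 36 of the 39 were higher in G2M than in S cells at E11.5 (2.92% of all genes measured) and 38 of the 39 at E13.5 (3.68%). Against G1 cells all 39 were higher in G2M cells in each library (5.22% and 9.44% of all genes). The phase calls can rest on these genes, so nothing is read from these counts. The G2M over S ratio had a median of 2.73 (E11.5) and 4.29 (E13.5), and each of the 39 genes had the larger ratio in the older library. The order of the genes was alike in both libraries (Pearson r of 0.956 between the log2 ratios of 39 genes that share cells and depth).

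The largest ratios of G2M over S belonged to genes that act from mitotic entry to exit. Ube2c was at 96.94 CPM in G1, 144.3 CPM in S and 885.5 CPM in G2M cells at E11.5, and at 32.1, 106.9 and 1151 CPM at E13.5, ratios of G2M over S of 6.14 and 10.8. Cdc20, the activator of the anaphase-promoting complex, had ratios of 5.62 and 10.2. Kif23, a kinesin of the central spindle used in cytokinesis, had 5.7 and 9.84, and Ccnb1, the main mitotic cyclin, 5.18 and 9.35. Cenpf, a large kinetochore protein, went from 3.94 at E11.5 to the largest ratio of all, 10.9, at E13.5. Its S cells had 67.37 and 43.79 CPM and its G2M cells 265.2 and 478.5 CPM.

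Tmpo, Anp32e and Cks1b were the flattest. Tmpo, a lamina-associated protein of the nuclear envelope, was at 310.2 CPM in S and 327.6 CPM in G2M cells at E11.5, a ratio of 1.06, and had 1.38 at E13.5. Anp32e, a chaperone that removes the histone variant H2A.Z, had 1.23 and 1.52, and Cks1b 1.39 and 1.64. These were the 3 members outside the rule at E11.5, and Tmpo was the only one outside it at E13.5. Top2a and Cdk1 differed more between G1 and S than the cyclin Ccnb1 did: in S cells Top2a was 3.74-fold and 15.2-fold higher and Cdk1 2.89-fold and 7.82-fold, against 1.36-fold and 4.25-fold for Ccnb1. S over G1 passed the rule for 30 members at E11.5 (7.66% of all genes) and for all 39 at E13.5 (10.6%). At E11.5, Cenpa and Ccnb2 were lower in S than in G1 cells, at 147.8 against 231.7 CPM and at 52.65 against 72.43 CPM, and at E13.5 the order was the opposite, with 73.65 against 48.66 CPM and 37.07 against 22.4 CPM.

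**Figure D3:**
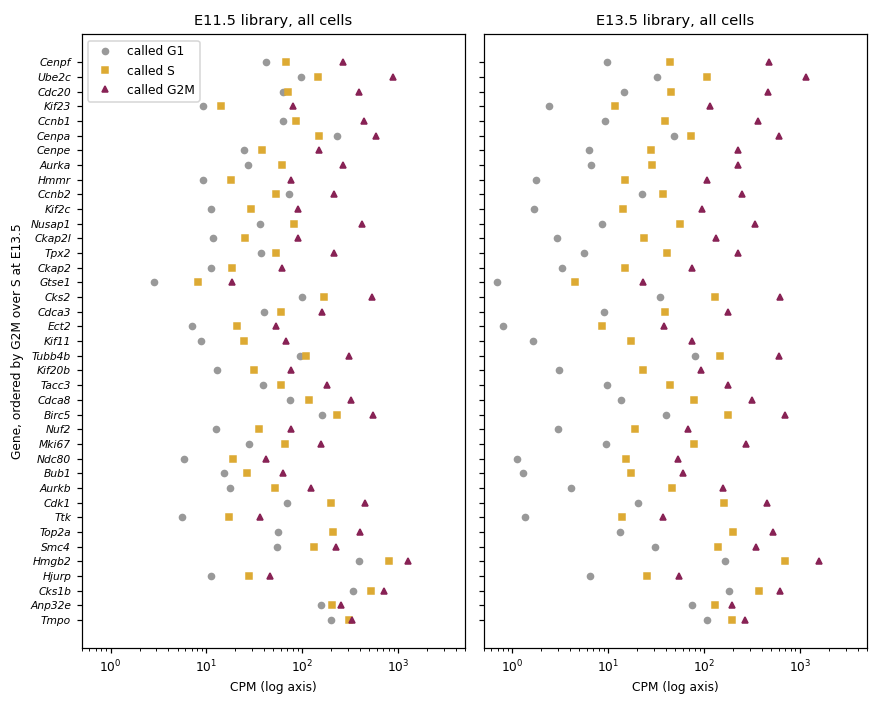
CPM of each gene (log x axis) over all cells called G1, S and G2M, at E11.5 and E13.5, with genes ordered by the E13.5 ratio of G2M over S. The triangles for G2M lie to the right for every gene, and Tmpo and Anp32e at the bottom have the narrowest spread. In this pool of all classes the G1 and S points of Cenpa and Ccnb2 change places between the stages.

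A division of the mesenchyme that used none of the 39 genes gave the same direction for the sum. The order of the single genes was not compared between the 2 divisions. Plk1, a mitotic kinase, and Ccna2, the cyclin of S phase and G2, are not members, and at least 1 UMI of either was found in 32.4% of cells thinned to 2000 UMIs at E11.5 and in 16.9% at E13.5. Cells with such a UMI had 9963 CPM of the 39 genes and cells without 5199 CPM at E11.5, a ratio of 1.92 (1.89 to 1.94). At E13.5 they had 14340 and 2648 CPM, a ratio of 5.41 (5.3 to 5.53). Of the members, 36 were higher in cells with the UMI at E11.5 (2.42% of all genes) and all 39 at E13.5 (5.97%). The 3 that fell short at E11.5 were again Tmpo at 1.13, Anp32e at 1.19 and Cks1b at 1.41. The highest ratios were those of Ube2c at 2.92 and Nusap1, a spindle protein, at 2.89 at E11.5, and of Kif23 at 13.5 (10.3 to 17.8) and Gtse1 at 9.81 (5.43 to 18.3) at E13.5.

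The promoters of these genes are shown because the members rise together. Promoters of G2 and mitosis genes are known for 2 short elements, the cell cycle homology region (CHR), through which the DREAM and B-MYB complexes repress and activate them, and CCAAT boxes, the sites of the factor NF-Y. In RefSeq promoters of GRCm38.p6, from 250 bases before to 50 after the start, 36 of the 39 genes were matched; Aurkb, Smc4 and Tpx2 were not. For the CHR the letters TTTGAA were searched on both strands. A CHR-like form was searched as TTTAAA, which reads alike on both strands, and the box of NF-Y as CCAAT on both strands. The following stretches run from 130 to 11 bases before the start, 5′ to 3′ on the gene's strand, for the 3 matched genes with the highest and the 2 with the lowest G2M over S ratio at E13.5, with matches in capitals (a match on the opposite strand is seen as its reverse complement).
Cenpf, chr1:189688097-189688216, minus strand: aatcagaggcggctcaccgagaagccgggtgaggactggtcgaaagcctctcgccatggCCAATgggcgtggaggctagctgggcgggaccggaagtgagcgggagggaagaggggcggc
Ube2c, chr2:164769799-164769918, plus strand: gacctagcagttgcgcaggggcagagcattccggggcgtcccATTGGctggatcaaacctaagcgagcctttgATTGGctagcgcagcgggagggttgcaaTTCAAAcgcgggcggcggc
Cdc20, chr4:118437354-118437473, minus strand: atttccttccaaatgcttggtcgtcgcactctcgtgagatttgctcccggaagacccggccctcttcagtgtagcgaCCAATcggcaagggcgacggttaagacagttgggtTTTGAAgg
Tmpo, chr10:91171630-91171749, minus strand: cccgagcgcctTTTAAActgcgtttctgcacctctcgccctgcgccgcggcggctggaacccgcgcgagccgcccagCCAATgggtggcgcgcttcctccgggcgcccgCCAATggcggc
Anp32e, chr3:95929127-95929246, plus strand: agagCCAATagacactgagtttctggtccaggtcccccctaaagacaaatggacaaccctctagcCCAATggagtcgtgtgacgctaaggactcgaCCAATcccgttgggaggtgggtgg

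In these stretches Ube2c and Cdc20 have a CHR match close to the start, on the opposite strand in Ube2c, preceded by CCAAT, while Tmpo has CCAAT and the CHR-like form and Anp32e has CCAAT alone. Cenpf has TTTGAA centred 5 bases after its start, outside the printed stretch. Anp32e has its TTTGAA centred at -192, also outside it. Over the whole 300 bases, 26 of the 36 members held TTTGAA (72.2%) against 18.1% of 27025 promoters, and 29 held CCAAT (80.6%) against 37.9%. Within 50 bases of the start on either side, 21 members held TTTGAA (58.3%) against 5.11% of all promoters. TTTAAA was found in 10 members (27.8%) against 13.2%. Nuf2, Nusap1 and Tacc3 held none of the 3. Members with and without TTTGAA had median G2M over S ratios of 2.75 and 2.71 at E11.5 and of 4.35 and 4.39 at E13.5. The median GC content was 59.3% in the members' promoters and 52.7% in all. A match of letters is not a binding site, and no match says only that these letters are not in this window.

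**Figure D4:**
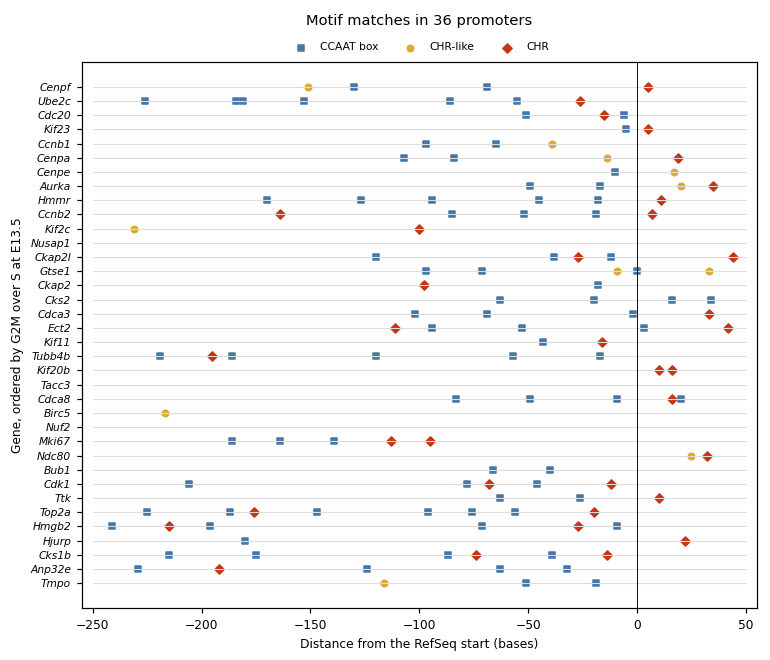
Positions of matches to the CHR, CHR-like and CCAAT letters (x axis, bases from the RefSeq start) in 36 promoters (rows, ordered by G2M over S at E13.5). Of the 36 members, 21 have a CHR match within 50 bases of the start, and the rows of Nuf2, Nusap1 and Tacc3 are empty.

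Between the stages, the 39 genes made up a smaller share of mesenchyme UMIs at E13.5. Cells called G2M and cells called G1 lay further apart in that share. The phase calls can rest on these genes, so stage values within a phase, here and in the other classes, are descriptions. Over all mesenchyme cells (5899 and 3905) the sum went from 7512 to 5523 CPM, a ratio of 0.735 (0.731 to 0.74). By the same rule of size 16 members were lower at E13.5 (12.2% of all genes measured) and 0 were higher (27.0%). The median log2 ratio of the 39 was -0.47, that of all genes 0.14. Cells called G2M made up 37.9% (36.6 to 39.1) and 20.4% (19.1 to 21.7) of the mesenchyme. Mesenchyme cells were deeper at E13.5, with medians of 8303 against 5895 UMIs. Among cells of 5000 to 9000 UMIs in both libraries the ratio was 0.342. In that window 38 members were lower (15.1% of all genes) and 0 higher (28.2%). That window holds 1405 of 2235 G2M cells at E11.5 but 213 of 796 at E13.5.

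In mesenchyme cells called G1 the sum fell from 3015 to 1101 CPM, a ratio of 0.365 (0.358 to 0.372). All members but Tubb4b, 38 of 39, were lower (13.7% of all genes) and 0 higher (23.9%), with a median log2 ratio of -1.96 against 0.11 for all genes. Bub1, a checkpoint kinase of the kinetochore, had the lowest ratio, 0.0414 (0.0216 to 0.0726), from 170 and 13 UMIs. Ect2, the exchange factor that places the cleavage furrow, followed at 0.0914 from 71 and 12 UMIs. Cenpa went from 288.7 to 53.76 CPM and Ccnb1 from 67.77 to 10.3 CPM. Tubb4b was at 101.3 and 73.53 CPM, a ratio of 0.726. Transcripts typical of other classes were counted at both stages, at levels that differed in either direction. Over all mesenchyme cells the haemoglobin gene Hba-a1 was at 1520 and 548 CPM, and the keratin gene Krt14 at 8.69 and 54 CPM. Prrx1 was at 55.8 and 19 CPM in skeletal muscle and at 64.1 and 6.42 CPM in erythroid cells. Whether free RNA added to the members' level in G1 cells was not tested. In cells of 5000 to 9000 UMIs the ratio of the sum was 0.329, with 38 members lower there too, Tubb4b now among them. Cells called S lay between, with 4493 and 3292 CPM, a ratio of 0.733, and 17 members lower (10.7%) and 0 higher (23.5%); the lowest ratios there were 0.25 for Cenpa and 0.322 for Ect2.

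In mesenchyme cells called G2M the direction was the opposite. The sum rose from 11930 to 16350 CPM, a ratio of 1.37 (1.36 to 1.38), with 14 members higher (20.9% of all genes) and 0 lower (11.9%). The share of members called higher, 14 of 39, is to be read against that background, and the median log2 ratio was 0.44 against 0.07 for all genes. In cells of 5000 to 9000 UMIs, which are another set of cells, the sum had a ratio of 1.13 (1.11 to 1.14), with 10 members higher and 5 lower (15.8% and 11.1% of all genes). The division by Plk1 and Ccna2, at equal thinned depth, gave a ratio of 1.44 (1.41 to 1.46) with 20 members higher (16.1%) and 0 lower (10.6%) in cells with the UMI. In cells without it the ratio was 0.509 (0.5 to 0.519), with 0 higher (22.2%) and 35 lower (13.1%). Plk1 and Ccna2 were themselves lower at E13.5, with ratios of 0.615 and 0.676 over all mesenchyme cells and of 0.551 and 0.685 in S cells. Whether the cells with a UMI had a like mix of phases at both stages was not tested.

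By role, the mitotic entry genes of G2M mesenchyme cells had the smallest median log2 ratio of the 7 groups, 0.16. Cks1b was at 807 and 695.3 CPM (ratio 0.862) and Cks2, its close relative, at 591.1 and 800.6 CPM (1.35). Ccnb1 was at 500.8 and 488 CPM (0.974), Cdk1 had a ratio of 1.12, and Ccnb2 at 234.8 and 379.8 CPM (1.62) was the only member of these 5 above the rule. Ccnb1 and Ccnb2 thus had unlike ratios in the same cells, with intervals of 0.939 to 1.01 and 1.54 to 1.69.

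Of the 6 mitotic kinases and passenger proteins only Birc5, the passenger protein survivin, was called higher, at 602.5 and 924.6 CPM (1.53). Cdca8, its partner borealin, was at 343.5 and 403.4 CPM (1.17), and Aurka, the kinase of the spindle poles, at 299.6 and 298.2 CPM (0.995). Aurkb (1.49), Ttk (1.3), another checkpoint kinase, and Bub1 (1.01) lay between. The cells of 5000 to 9000 UMIs gave 0.551 for Aurka.

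Of the 6 kinetochore genes 3 were called higher. Cenpf rose from 294.5 to 653 CPM, a ratio of 2.22 (2.13 to 2.3), Cenpe, a kinesin of the kinetochore, had a ratio of 1.88 and Ndc80, which holds microtubules, 1.7. Cenpa was at 659.9 and 852 CPM (1.29), and Nuf2, which pairs with Ndc80, had the lowest ratio of the group, 1.15, from 86.14 and 99.49 CPM. Hjurp had a ratio of 1.48.

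Among the 10 spindle genes 4 were called higher, and here lay the highest ratio of all. Tubb4b rose from 309.2 to 780.3 CPM, 2.52-fold (2.43 to 2.62). Ckap2l rose from 101.3 to 195.9 CPM (1.93) and Hmmr, a spindle assembly factor, from 80.54 to 154.9 CPM (1.92), while Ckap2 had a ratio of 1.63. Gtse1 (1.32), Kif11 (1.28), the kinesin that separates the spindle poles, Tpx2 (1.25), Kif2c (1.22) and Tacc3 (1.15) were not called. Nusap1, with the most UMIs of the group at E11.5, was at 458.4 and 475.9 CPM (1.04). In cells of 5000 to 9000 UMIs Nusap1 had a ratio of 0.526.

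The 3 cytokinesis genes split. Kif23 rose from 92.04 to 167.7 CPM (1.82) and Kif20b from 84.79 to 130.5 CPM (1.54), whereas Ect2 was at 57.29 and 45.89 CPM (0.801, 0.711 to 0.901). None of the 3 genes of the anaphase-promoting complex and its partners was called: Ube2c was at 999.1 and 1430 CPM (1.43), Cdc20 at 452.4 and 623 CPM (1.38) and Cdca3 at 180.2 and 241.3 CPM (1.34).

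Of the 6 genes of chromosome structure and the nuclear envelope 3 were called higher and the group held the lowest ratio of the set. Mki67 rose from 165.2 to 382.8 CPM (2.32, 2.2 to 2.44), Smc4, a condensin subunit, had a ratio of 1.78 and Top2a rose from 463.9 to 726.9 CPM (1.57). Hmgb2 was at 1432 and 2133 CPM, a ratio of 1.49 just under the rule. Anp32e was at 274.7 and 219.2 CPM (0.798) and Tmpo at 366.9 and 328.5 CPM (0.895). In cells of 5000 to 9000 UMIs Top2a turned to 0.693, Smc4 to 1.15 and Kif20b to 1.06.

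**Figure D5:**
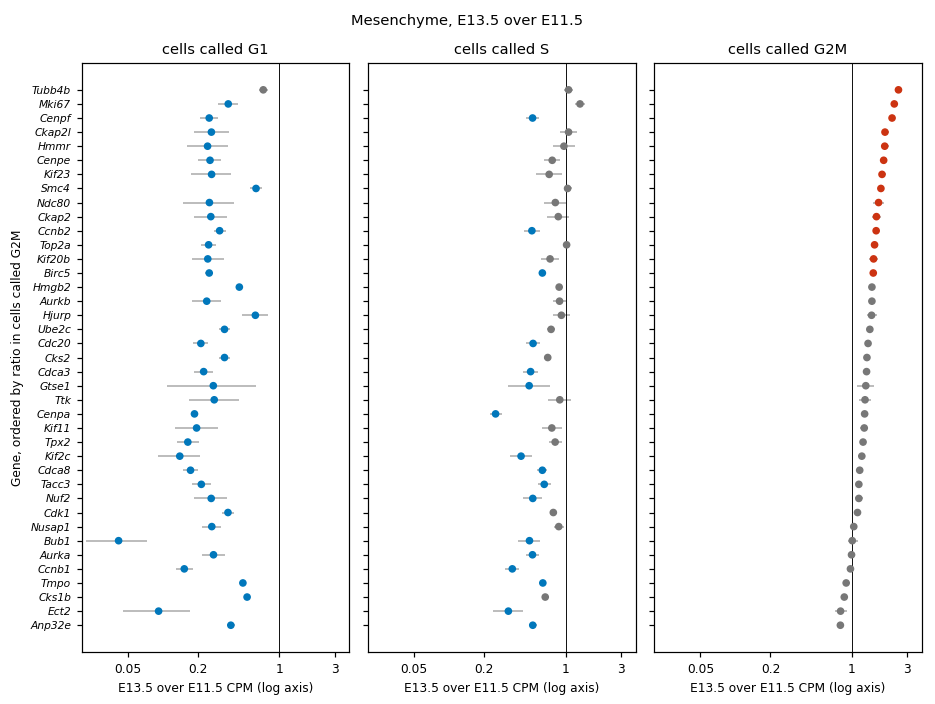
Ratio of E13.5 over E11.5 CPM for each gene (log x axis, lines are 95% counting intervals) in mesenchyme cells called G1, S and G2M, with red for called higher, blue for called lower and grey for neither. In G1 cells 38 points are blue, in S cells 17, and in G2M cells 14 are red, from Birc5 at 1.53 to Tubb4b at 2.52.

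Other cell cycle genes in the mesenchyme are set against the shares over all genes, which were 27.0% higher and 12.2% lower over all cells, 23.9% and 13.7% in G1 cells, and 20.9% and 11.9% in G2M cells. Of 22 other mitotic genes, 1 was higher and 10 were lower over all cells, 0 were higher and 20 lower in G1 cells, and 6 were higher and 0 lower in G2M cells. Plk1 was among those lower over all cells, at 116.8 and 71.87 CPM (0.615). Cdc25b, a phosphatase that activates Cdk1, was the one higher, at 14.02 and 21.87 CPM (1.56), and it had the highest ratio of the list in G2M cells, 2.85. Of 16 other genes of the Seurat G2M list, 3 were lower over all cells and 3 higher in G2M cells. In G1 cells 11 of the 15 measured were lower and 0 higher. Among 43 S phase genes 20 were lower and 0 higher over all cells, and 8 were lower and 3 higher in G2M cells. In G1 cells 36 of these 43 were lower and 0 higher, with a median log2 ratio of -1.19.

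Among 7 activators of mitotic genes, Foxm1, a forkhead factor of G2, was lower over all cells, at 13.86 and 8.951 CPM (0.646), and so was the NF-Y subunit Nfya (0.569). In G1 cells Foxm1 had a ratio of 0.27 and Mybl2, which encodes B-MYB, 0.265, both called lower. In G2M cells neither was called, with 1.21 and 1.19, and of the 7 only Nfya was called, lower at 0.621. The list of 11 genes of repression and cell cycle exit had 6 higher and 0 lower over all cells (27.0% and 12.2% of all genes), with a median log2 ratio of 0.83, and also 6 higher and 0 lower in G2M cells (20.9% and 11.9%). Cdkn1c, an inhibitor of cyclin-dependent kinases, was by far the largest in UMIs, at 1155 and 4333 CPM over all cells (3.75) and at 1055 and 4504 CPM in G2M cells (4.27). Cdkn2c, an inhibitor of Cdk4 and Cdk6, was at 5.147 and 38.6 CPM over all cells (7.5), at 2.409 and 8.289 CPM in G1 cells (3.44) and at 6.431 and 105.2 CPM in G2M cells (16.4). Cdkn1b (2.12), Cdkn1a (2.46), Rbl2 (2.22) and Btg1 (1.74) were the others higher in G2M cells.

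Outside the mesenchyme, the 39 genes made up a smaller share of UMIs at E13.5 in G1 cells of epithelium, skeletal muscle and endothelium. In G2M cells of these classes the share lay nearer to level. In epithelium the ratio was 0.965 over all cells, 0.428 in G1 and 1.14 (1.11 to 1.16) in G2M cells. The ratio over all cells became 0.52 in cells of 5000 to 9000 UMIs and 1.06 with size factors from the median gene ratio. Over all epithelial cells 2 members were higher (9.33% of all genes) and 5 lower (14.2%), with Tubb4b at 2.02 and Mki67 at 1.53 higher and Ect2 lowest at 0.466. In epithelial G2M cells Tubb4b (2.18), Mki67 (1.91), Cenpf (1.67) and Cenpe (1.62) were higher, 4 of 39 (7.25%), and Ect2 (0.464) and Anp32e (0.635) were lower, 2 of 39 (11.8%). Each of these 6 lay on the same side of 1 in the mesenchyme.

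In skeletal muscle the ratio was 0.819 over all cells, 0.219 in G1 and 1.09 in G2M cells. Over all its cells 0 members were higher (9.38%) and 4 lower (13.7%): Ccnb1 at 0.664, Aurka at 0.66, Nuf2 at 0.626 and Ect2 at 0.494. The G1 cells sit in different clusters at the 2 stages: all 32 of E11.5 were in cluster 14, while those of E13.5 were 18 in cluster 1, 137 in cluster 15 and 80 in cluster 19. In muscle G2M cells 2 members were higher (5.44%), Cenpe and Smc4, both at 1.64, and 0 were lower (9.71%).

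In endothelium the ratio was 0.854 over all cells, with 5 members lower (13.6%) and 0 higher (7.43%), 0.403 in G1 and 0.924 in G2M cells. Only 44 and 41 endothelial cells were called G2M, where Hmmr was higher at 1.73 (6.02% of all genes) and 4 members, Ccnb1, Kif11, Tmpo and Anp32e, were lower (9.55%). Leaving out cells of over 2 times the median depth of their cluster and phase turned the ratio over all cells to 1.02. Macrophage markers moved with this comparison: all 6 listed (C1qa, C1qb, C1qc, Csf1r, Fcer1g and Tyrobp) had UMIs in the E11.5 endothelium, 813 CPM in sum, against 12.1 CPM at E13.5, where C1qa and Csf1r were at 0. Without the 21 of 162 E11.5 cells that held 5 or more UMIs of these markers (0 of 137 at E13.5), the ratio was 0.833 (0.805 to 0.862).

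In erythroid cells all 39 members were lower at E13.5, but so were 90.0% of all genes measured (0 members and 0.921% of genes were higher), with haemoglobin at a larger share of their UMIs. Counted without haemoglobin, the sum went from 8621 to 3284 CPM, a ratio of 0.381 (0.36 to 0.402), with 35 members lower (39.8% of all genes) and 1 higher (5.12%). The median log2 ratio was then -1.98, against -0.94 for all genes. The member that was higher was Ube2c, from 616.5 to 991.2 CPM on that scale, a ratio of 1.61 (1.44 to 1.8) from 1294 and 419 UMIs. Tubb4b was nearly level, at 556.5 and 567.8 CPM (1.02).

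The genes outside the set whose log2 level over the clusters was most like the summed level of the 39, by the lower of the Pearson r over 17 and over 22 clusters, were Kif22 (0.978), Tyms (0.973), Mad2l1 (0.969), H2afx (0.967), Smc2 (0.966), Rrm1 (0.966), Kif20a (0.965), Dbf4 (0.956), Ncapd2 (0.956) and Kpna2 (0.956). They were the first 10 of 6990 genes compared. The points share libraries, depth and the deposited clustering. Kif22, Mad2l1, Smc2, Kif20a and Ncapd2 act on chromosomes and the spindle, and Tyms and Rrm1 make DNA precursors.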

How the data were processed

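For each library the authors deposited a matrix of raw UMI counts and, for its cells, the cluster, lineage, phase, cell cycle score and mitochondrial share (a fraction). Cell Ranger 2.0.0, Seurat 2.3.4 and the build mm10 are named without role or order, per the submitters' processing notes. The sources used here give neither the annotation release, nor any doublet removal, nor the genes scored. Deposited score values were only correlated with the members' level, and doublets were kept.

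CPM are summed counts of a group of cells over all their UMIs. Ratios have exact conditional binomial, levels exact Poisson and shares exact Clopper-Pearson 95% intervals. A gene was called at 1.5-fold or more, with an interval excluding 1 and at least 20 UMIs. Clusters under 50 cells were left out of correlations. Python 3.11.15, numpy 2.4.6, scipy 1.17.1 and pandas 2.3.3 were used. Members, lists and rules were chosen with earlier results of these data known. Per role, values are given for the 2 members with most UMIs and those with the highest and lowest ratio in G2M mesenchyme cells, and for the 10 genes most like the sum. The alternatives are listed in the closing section.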

Additional observations from a re-analysis of the deposited data

Results flagged for a closer look

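In 3 classes the summed level of the 39 genes moved in opposite directions between the stages in cells called G2M and cells called G1. The later over the earlier level was 1.37 in G2M and 0.365 in G1 cells of the mesenchyme, 1.14 and 0.428 in epithelium, and 1.09 and 0.219 in skeletal muscle. The muscle cells called G1 were all 32 in cluster 14 at E11.5, and 18, 137 and 80 in clusters 1, 15 and 19 at E13.5. With 1 library per stage this difference was not tested. The phase calls can rest on these same genes, so the groups are not independent of the sum. Whether sorting the cells on these genes gave the opposite directions was not tested. G1 mesenchyme cells had median depths of 4702.5 and 7376 UMIs, and G2M cells of 7305 and 10735 UMIs, earlier and later. The role of depth was not tested beyond the window of 5000 to 9000 UMIs and the division by Plk1 and Ccna2.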

How the results depend on the processing

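All values rest on 1 library per stage, so nothing here measures the spread between embryos. No paired analysis was possible because each stage has 1 library. Over the main results, 80 alternative values stayed within 1.5 times the count or within the counting interval, 27 moved outside it and 2 changed direction. The window of 5000 to 9000 UMIs, the leaving out of E13.5 cluster 21 and of endothelial cells with macrophage markers, the alternatives for cells called G1 and the stage ratios in the division by Plk1 and Ccna2 were chosen after seeing the data. At a fold of 2, the members lower over all mesenchyme cells numbered 2 in place of 16, and those higher in cells called G2M 3 in place of 14. The shares of all genes that pass a fold of 2 were not computed, so these 2 counts have no background beside them. In the window, 38 were lower over all mesenchyme cells (15.1% of all genes) and 5 in cells called G2M (11.1%), where Top2a changed side at 0.693. The count lower in G1 cells stayed between 34 and 38, where 13.7% of all genes were lower by the main rule. The ratios of the sum in the window were 0.342 in mesenchyme, 0.52 in epithelium, 0.682 in endothelium and 0.181 in erythroid cells; too few E11.5 muscle cells lay in it. Size factors from the median gene ratio gave 0.667 in mesenchyme, 1.06 in epithelium (main value 0.965), 0.919 in muscle, 0.891 in endothelium and 0.588 in erythroid cells. The mean over cells of CPM gave 0.678, 0.872, 0.774, 0.784 and 0.149 in the same order, and 2.4 and 5.53 for the highest over the lowest mesenchyme cluster. Leaving out haemoglobin gave 0.728 in mesenchyme and 0.381 in erythroid cells. Leaving out cells of over 2 times the median depth gave 0.73 in mesenchyme, 1.02 in endothelium and 5.69 for the E13.5 clusters. Thinning to 1000 UMIs gave shares of 55.9% and 25.6%, and a minimum of 3 UMIs gave 92.8% and 56.8%. The cause of these changes was not tested.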
